A study of Rattus norvegicus with 35 samples.

Results

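Simvastatin is a statin, a drug that lowers cholesterol synthesis, and bleeding followed by resuscitation injures a cirrhotic liver that already has a poor blood supply. The measurement described here is the difference between 2 hemorrhage effects in the rat liver, the effect in rats given simvastatin minus the effect in rats not given it. It was computed for all 13439 genes from 24 arrays of bile-duct-ligated rats, out of 35 arrays in the whole study. A value below 0 means that hemorrhage and resuscitation (H/R) moved a gene less upward, or more downward, with the drug than without it, and a value above 0 the reverse. A gene is represented by its brightest probe set (a group of short probes for a transcript) that is annotated to a single symbol, and all values are log2 signals, so that a difference of 1 is a doubling.

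The difference is built on 4 ligated groups. CBDLpS held 5 rats with a sham procedure (ligated sham), CBDLpH 6 rats with H/R (ligated H/R), CBDLSS 5 rats with simvastatin and a sham procedure (simvastatin sham), and CBDLSH 8 rats with simvastatin and H/R (simvastatin H/R). All 24 had biliary cirrhosis from removal of a tied-off piece of the common bile duct 4 weeks earlier, under midazolam and ketamine, and all received vitamin K each week. The drug was given by gavage at a daily 5 mg/kg, starting 3 days ahead of the experiment and ending 1 h ahead of it. Whether the other ligated rats received the drug's vehicle, distilled water, is not stated in the labels, nor are strain, sex or age. The controls without ligation, 5 sham and 6 H/R, have no drug group and entered the fit only through the shared estimate of spread. Hepatocyte function genes, the defining markers of liver, averaged 10.95 to 11.15 in the 4 ligated groups, on arrays whose medians ran from 4.06 to 4.29.

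Hemorrhage deprives the liver of oxygen, and reperfusion then calls in neutrophils and monocytes, which carry Toll-like and cytokine receptors and release interleukin 1, chemokines and calcium-binding alarmins. Kupffer cells, the liver's resident macrophages, respond to the same signals. Stressed cells of any type make heat shock proteins, the chaperones that refold damaged proteins under the control of heat shock factor 1, which binds inverted repeats of GAA in promoters. Statins are also known to raise the endothelial transcription factor KLF2, which drives nitric oxide synthase and relaxes the vessels of the cirrhotic liver.

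Replicate 1 of the simvastatin sham group stood apart from the other 23 ligated arrays. Its GAPDH signal was 2.20 higher at the 3 prime end than at the 5 prime end, against 0.00 to 0.34 on the others, and its beta-actin signal 4.30 higher, against 1.41 to 2.28. Its median correlation with the other ligated arrays was 0.967, against 0.970 to 0.986. Such a gap is used on these arrays as a sign of RNA quality, and its part in the results was not tested beyond leaving the array out. Because this array is 1 of 5 in a group the difference is built on, gene values below are given without it, or without another array, where they move by over 1.5 times, and list medians are given both ways where they differ by 0.10 or more.

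The hemorrhage effect differed between the arms for 1 gene of 13439, 0.00744% of those tested (limma, moderated test with Benjamini-Hochberg adjustment, adjusted p under 0.05). That gene, Pira2, was lower. At an unadjusted p under 0.05 there were 654 genes, 4.87%, of which 391 (2.91%) lay below 0 and 263 (1.96%) above. A total of 4.87% is about the share that a cutoff of 0.05 gives when no gene differs. Estimates below 0 made up 49.5% of all genes and the median was 0.00. The medians of the ligated arrays were close to each other (4.06 to 4.29), so this centre cannot show whether expression as a whole shifted. The design was precise enough for large differences only. The median standard error of the difference was 0.22, against 0.16 and 0.15 for the single hemorrhage effects, and the 95% interval lay within 1 log2 unit on both sides of 0 for 11612 genes, 86.4%. Array number limits this precision, and samples are taken as separate rats, as the labels give them.

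The plain hemorrhage effects were as follows. Without simvastatin, H/R changed 18 genes (0.134%), of which 16 rose (0.119%) and 2 fell (0.0149%), and 10.4% of genes had an unadjusted p under 0.05. With simvastatin no gene passed (0 of 13439 in limma's adjusted test, and 725, 5.39%, at an unadjusted p under 0.05). That share too is near what the unadjusted cutoff gives when no gene differs. All 18 genes had a smaller effect with the drug, 15 kept their sign, and the median of the 16 that rose was 1.01 without and 0.11 with it. Genes picked for a large effect in 1 arm tend to be smaller in the other, so the shrinkage describes these 18 and was tested only by the difference itself, which Pira2 alone passed. The count of 18 rests on single arrays: leaving out 1 array gave 2 genes without ligated H/R replicate 1 and 11 without its replicate 4, and 28 without its replicate 6. Leaving out a ligated sham array gave 6 genes without replicate 1, 4 without replicate 2, 45 without replicate 3 and 7 without replicate 4.

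**Figure D1:**
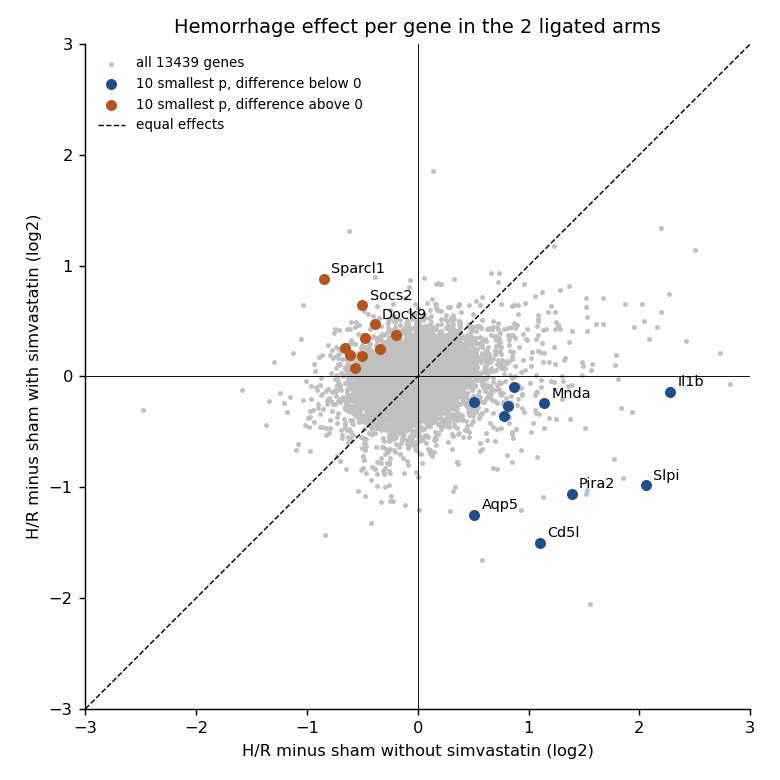
Each grey point is 1 of 13439 genes, with the H/R minus sham difference without simvastatin on the horizontal axis and with simvastatin on the vertical axis, both in log2. Genes on the dashed line have equal effects, the 10 genes of smallest p below the line (blue) lie to the right and low, and the 10 above it (orange) lie to the left and high. Across genes the 2 effects had a Pearson r of 0.21 and a Spearman rho of 0.24.

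Correlation of the 2 hemorrhage effects across genes was weak, Pearson r 0.21 and Spearman rho 0.24 over 13439 genes, which are not independent replicates, and r was 0.13 without the array that stood apart. The standard deviation of the effects across genes was 0.27 without and 0.20 with simvastatin. Of the 391 genes below 0 at an unadjusted p under 0.05, 337 were higher after H/R without the drug and lower after it with the drug. Of the 263 above 0, 240 showed the opposite pair of signs. Of the 391, 371 were higher with the drug in sham rats and 47 after H/R. Of the 263, 14 were higher with the drug in sham rats and 242 after H/R. Of all 13439 genes, 6592 were higher with the drug in sham rats and 6697 after H/R. The 391 and 263 genes had been selected on the difference, so their signs are a description.

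Pira2, named in the probe table as a paired immunoglobulin-like receptor A, belongs to a family of activating receptors on rodent myeloid cells. In ligated sham rats it measured 4.66, 3.73, 5.06, 4.27 and 3.18. After H/R it ran from 5.10 (median 5.50) to 6.07, so every H/R array lay above every sham array. With simvastatin the sham arrays measured 5.66, 5.93, 5.19, 5.80 and 5.21, and the H/R arrays ran from 3.88 (median 4.57) to 5.44.

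Thus the sham groups did not overlap and the drug group was the higher, while after H/R the drug group was mostly the lower, with some overlap. Group means were 4.18 ± 0.74 (SD, n = 5), 5.57 ± 0.43 (n = 6), 5.56 ± 0.34 (n = 5) and 4.50 ± 0.52 (n = 8) in that order. The controls without ligation averaged 4.74 ± 0.32 (n = 5) with a sham procedure and 4.88 ± 0.43 (n = 6) after H/R. H/R raised the gene by 1.39 without simvastatin (adjusted p = 0.023) and the estimate with it was -1.06 (adjusted p = 0.49). The difference of these was -2.44 ± 0.38 (standard error, limma adjusted p = 0.0038).

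The 3 probe sets named Pira2 gave -2.44, 0.97 and -0.22, the latter 2 also carry a different gene identifier, and a probe set shared by Pira2 and Pirb gave 0.11. The family has near-identical members, so which transcript the bright probe set reads is uncertain, and with the mean of all probe sets the estimate was -0.57 (adjusted p = 0.88). The final 2 digits of the sample titles, whose meaning the labels do not state, are spread unevenly. The ligated sham and simvastatin sham groups share no ending. With that ending as a further term the estimate was -2.39 (adjusted p = 0.17), and with the ending as a random block -2.40 (adjusted p = 0.062). The drug and these endings can only partly be told apart, since no ending holds all 4 groups. That limit holds for every drug effect given in the text, in sham rats or after H/R. With the ending as a term, the genes called for a drug effect fell from 105 to 8 in sham rats and from 182 to 20 after H/R. No gene left out by these choices of probe set was called: 11979 probe sets without a single symbol gave 0 calls in limma's adjusted test and 461 (3.85%) at an unadjusted p under 0.05.

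The genes next in line below 0 did not pass the adjusted test. They include Slpi, a secreted inhibitor of neutrophil elastase, for which ligated sham rats measured 7.17, 6.19, 7.32, 7.59 and 8.20 and H/R rats 8.20 (median 9.20) to 10.68. With simvastatin the sham values were 7.60, 9.54, 7.44, 8.60 and 8.52 and the H/R values 6.12 (median 7.23) to 8.65. The untreated groups met at 8.20 and the drug groups overlapped, and the difference was -3.04 ± 0.68 (unadjusted p = 8.2e-05, adjusted p = 0.37). After H/R, Slpi averaged 9.35 ± 1.04 (n = 6) without and 7.35 ± 0.80 (n = 8) with simvastatin (adjusted p = 0.013).

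Mnda, a nuclear antigen of myeloid cells, measured 6.73, 6.81, 6.28, 6.55 and 5.84 in ligated sham rats and 7.13 (median 7.44) to 8.40 after H/R. In simvastatin sham rats it measured 7.71, 7.53, 7.62, 8.13 and 8.26, and with H/R 6.71 (median 7.64) to 8.23. The simvastatin sham group was already at the level of the H/R groups, and every one of its arrays lay above every ligated sham array (drug effect in sham rats 1.41, adjusted p = 0.0029). The difference of hemorrhage effects was -1.38 ± 0.35 (adjusted p = 0.53). Other genes of this rank were Cd5l (-2.60 ± 0.62), a macrophage-secreted protein, and Plac8 (-1.15 ± 0.30), a small cysteine-rich protein abundant in leukocytes. Cd5l passed with array weights (-2.91, adjusted p = 0.046). The water channel gene Aqp5 gave -1.75 ± 0.45, the mitochondrial malic enzyme gene Me2 -1.08 ± 0.28 and the proprotein convertase gene Pcsk5 -0.97 ± 0.25. H/R raised Pcsk5 by 0.87 without the drug (adjusted p = 0.032), and the estimate with it was -0.10. Galnt6, a glycosyltransferase gene, was not above the nonspecific probes in any of the 4 groups, and its -0.73 ± 0.19 has little signal behind it.

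**Figure D2:**
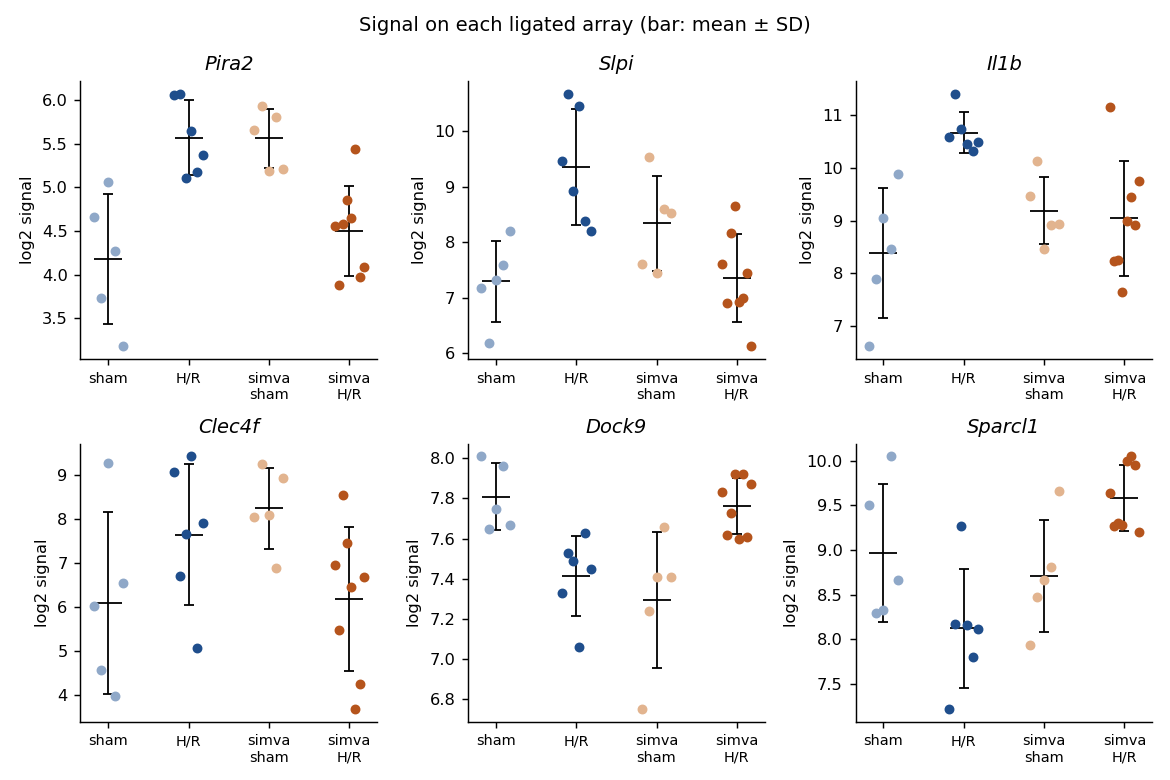
Each point is 1 array, with log2 signal on the vertical axis and the 4 ligated groups on the horizontal axis (n = 5, 6, 5 and 8), and bars give mean ± SD. Pira2 is low in ligated sham, high in ligated H/R and simvastatin sham, and lower again in simvastatin H/R, with Slpi, Il1b and Clec4f overlapping more, while Dock9 and Sparcl1 run the opposite way.

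Above 0 no gene passed. Dock9, an activator of the small GTPase Cdc42, came nearest. In ligated sham rats it measured 8.01, 7.65, 7.75, 7.96 and 7.67, and after H/R 7.06 (median 7.47) to 7.63. With simvastatin the sham arrays measured 6.75, 7.24, 7.41, 7.66 and 7.41 and the H/R arrays 7.60 (median 7.78) to 7.92.

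The untreated groups did not overlap and ran downward, and the drug groups overlapped at 1 sham array and ran upward. The difference was 0.86 ± 0.16 (adjusted p = 0.057). It passed with array weights, with the trend and robust prior, with arrays centred on their median, with dim genes left out and after a further quantile normalization, with adjusted p from 0.026 to 0.049, and was 0.72 without the array that stood apart. Sparcl1, a matricellular protein of vessel and stellate cells, gave 1.73 ± 0.45: its simvastatin H/R arrays ran from 9.20 (median 9.47) to 10.05 and its ligated H/R arrays from 7.22 (median 8.14) to 9.27. After H/R it was higher with the drug by 1.47 (adjusted p = 0.0045). Also in this rank were Socs2, a feedback inhibitor of growth hormone signalling (1.14 ± 0.33), the actin-binding Nexn (0.92 ± 0.26), the chromatin component Mta3 (0.83 ± 0.24), the ubiquitin ligase Herc3 (0.80 ± 0.24), Tmem64 (0.67 ± 0.20) and C10h17orf58 (0.65 ± 0.20). Dlx1 (0.57 ± 0.15) and Sh3d21 (0.58 ± 0.17) were not above the nonspecific probes in any of the 4 groups, and Socs2 and Nexn not in 1 of them.

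Lists of genes were then read for each function. They were chosen with earlier results of these data known, so the shares and medians below describe the lists and are not a test. Across all genes 49.5% lay below 0 with a median of 0.00, and no list member passed the adjusted test of the difference. Some genes belong to more than 1 list, so the lists are not independent of each other. In a tissue sample, fewer cells of a type and less RNA per cell cannot be told apart. A difference below 0 can come from a higher simvastatin sham level as well as from a lower simvastatin H/R level. The median drug effect in sham rats and after H/R was 0.55 and -0.65 for neutrophil markers and 0.37 and -0.33 for myeloid receptors. For Kupffer cell and macrophage markers it was 0.30 and -0.07, and for MHC class II 0.34 and -0.12. For interleukin 1 genes it was 0.18 and -0.26, for chemokines 0.11 and -0.62 and for heat shock genes 0.14 and -0.26.

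Neutrophil markers had 11 of 12 measured members below 0, with a median of -0.98, and -1.11 without the array that stood apart. Their median H/R effect was 0.98 without simvastatin and -0.18 with it, and 7 members lay below 0 at an unadjusted p under 0.05 (2.91% of all genes did). Without simvastatin sham replicate 2 the count was 5. Of the 12 members, 4 were not above the nonspecific probes in any group. S100a8, a calcium-binding alarmin stored in neutrophils, measured 6.49, 6.20, 6.92, 6.37 and 6.10 in ligated sham rats and 6.33 (median 8.38) to 10.29 after H/R. The simvastatin sham arrays measured 6.20, 9.01, 6.35, 9.35 and 7.80, and the H/R arrays 5.76 (median 6.72) to 8.43.

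Simvastatin sham rats thus split, with replicates 1 and 3 at the level of the untreated sham arrays and the other 3 above every one of them. The difference was -2.77 ± 0.86 (adjusted p = 0.61). The decoy receptor Il1r2 gave -2.25 ± 0.64 and Csf3r, the receptor for the neutrophil growth factor G-CSF, -2.58 ± 0.70, though Csf3r was not above the nonspecific probes in 2 of the 4 groups. The mean level of the marker list ran from 4.78 to 5.22 in ligated sham, 5.02 to 7.05 in ligated H/R, 4.99 to 6.22 in simvastatin sham and 4.84 to 5.78 in simvastatin H/R. It therefore moved with the other inflammatory lists below, some of which share members with it, such as Csf3r among myeloid receptors. The part of neutrophil markers in those lists was not tested.

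Myeloid receptors, a list that includes Toll-like, colony-stimulating factor and immunoglobulin-like receptors, had 23 of 25 members below 0, with a median of -0.62. Their median H/R effect was 0.43 without and -0.12 with simvastatin. In the list, 4 of the 25 were not above the nonspecific probes in any group. Tlr1 (-1.59 ± 0.42) and Tlr2 (-1.63 ± 0.46), partners in sensing bacterial lipoproteins, and Csf2ra (-0.70 ± 0.22), a receptor chain for GM-CSF, had the smallest p values beside Csf3r. After H/R, Tlr2 was lower with simvastatin by -1.15 (adjusted p = 0.046). Lilrb4, a receptor related to the Pira family and chosen after its value was seen, gave -1.23 ± 0.69 (adjusted p = 0.99).

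Of the Kupffer cell and macrophage markers 11 of 14 lay below 0, with a median of -0.36 and a range of sample means from 7.81 to 9.02. Clec4f, a lectin made by Kupffer cells, gave the lowest estimate of all 13439 genes, -3.61 ± 1.07, with a wide spread. It measured 6.04, 4.58, 9.28, 3.99 and 6.56 in ligated sham rats and 5.08 (median 7.79) to 9.43 after H/R, and with the drug 8.05, 9.26, 8.10, 6.90 and 8.94 in sham rats and 3.69 (median 6.59) to 8.56 after H/R. All 4 groups overlapped and the adjusted p was 0.53. Cd163, the scavenger receptor for hemoglobin, gave -1.62 ± 0.54. Spp1, osteopontin, which bile duct cells also make, ran the other way at 1.94 ± 0.73.

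Interleukin 1 genes had 13 of 16 members below 0, with a median of -0.42, and 4 of the 16 were not above the nonspecific probes in any group. Il1b encodes the main secreted form. It measured 6.62, 7.89, 9.04, 8.47 and 9.88 in ligated sham rats and 10.31 (median 10.54) to 11.40 after H/R. In simvastatin sham rats it measured 9.47, 10.12, 8.47, 8.92 and 8.94, and after H/R 7.64 (median 8.95) to 11.14.

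Without the drug the groups did not overlap and Il1b rose by 2.28 (adjusted p = 0.023), while with it the groups overlapped fully, with an estimate of -0.14 (adjusted p = 0.98). The difference was -2.42 ± 0.63 (adjusted p = 0.53). Il1a, the cell-bound form, gave -2.52 ± 0.85 and was lower after H/R with the drug by -2.36 (adjusted p = 0.020).

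Chemokines had a median of -0.99, with 22 of 27 members below 0. Of the members, 10 lay below 0 at an unadjusted p under 0.05 (2.91% of all genes did), but 3 without simvastatin sham replicate 2. Their median H/R effect was 0.56 without and 0.08 with simvastatin. Of the 27, 3 were not above the nonspecific probes in any group. The neutrophil attractant Cxcl1 gave -1.59 ± 0.58 (-0.95 without ligated sham replicate 1), the monocyte attractants Ccl6 and Ccl7 -1.08 ± 0.37 and -1.61 ± 0.67, and the lymphocyte attractant Ccl5 -1.16 ± 0.48. All 4 had an adjusted p of 0.72 or more. The list of cytokines and growth factors of inflammation was nearer the background, with 14 of 24 below 0 and a median of -0.10, and 13 of the 24 were not above the nonspecific probes in any group. In it Tnf gave -2.12 ± 0.75 and Il6 -2.10 ± 0.89. The inducible cyclooxygenase Ptgs2, at -1.52 ± 0.80, had an unadjusted p of 0.065.

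NF-kappa-B targets and feedback genes had 16 of 18 below 0 and a median of -0.41, with none at an unadjusted p under 0.05 (limma, 0 adjusted as well), and 2 without the array that stood apart. Nfkbiz, a co-regulator induced by interleukin 1, gave -0.96 ± 0.49 (-0.57 without ligated sham replicate 1) and the mitochondrial superoxide dismutase Sod2 -0.82 ± 0.42. Leukocyte adhesion genes had 13 of 15 below 0 and a median of -0.22, led by the integrin chains Itgal (-0.76 ± 0.34), Itgb2 (-0.82 ± 0.38) and Itgam (-0.88 ± 0.42). Without simvastatin sham replicate 2, Itgam was -0.52. Of the adhesion genes, 3 lay below 0 at an unadjusted p under 0.05 (2.91% of all genes did), and 0 without that array. 

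**Figure D3:**
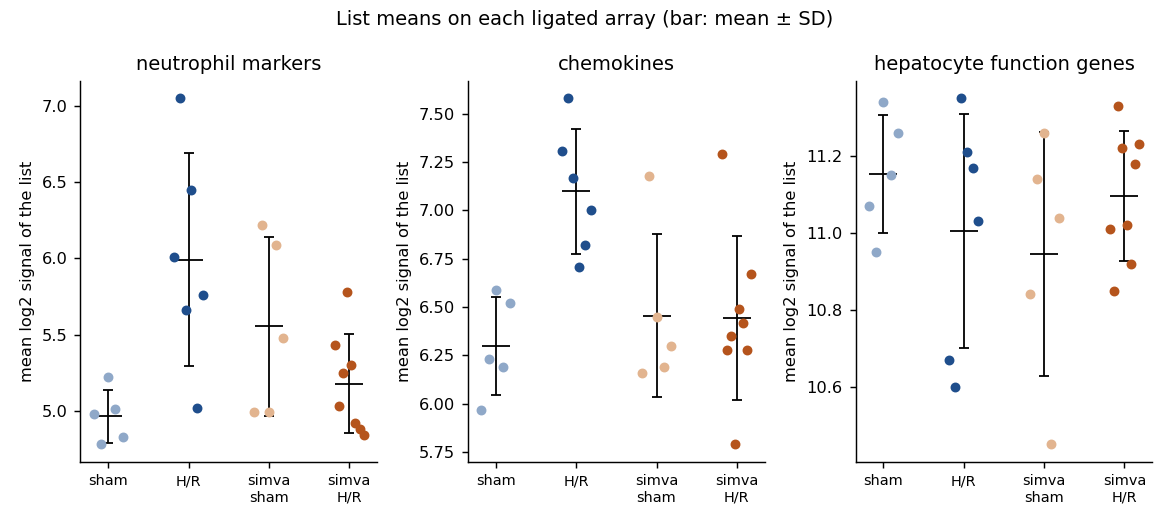
Each point is 1 array, the mean log2 signal over the members of a list, for neutrophil markers, chemokines and hepatocyte function genes in the 4 ligated groups, and bars give mean ± SD. Neutrophil marker means reach 7.05 in ligated H/R and 6.22 in simvastatin sham, chemokine means in ligated H/R (6.71 to 7.58) lie above all ligated sham means (5.97 to 6.59), and hepatocyte means overlap in all groups.

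Antigen presentation and lymphocyte genes lay on the same side. MHC class II had 7 of 8 below 0, with a median of -0.32, and -0.48 without the array that stood apart. RT1-Db1 gave -0.86 ± 0.34. RT1-Ba gave -2.24 ± 0.90, with 1 simvastatin H/R array at 4.17 and the next at 8.63, and its mean over 4 probe sets was -0.55. Lymphocyte markers had 16 of 16 below 0 and a median of -0.34, but 9 of the 16, the natural killer receptor Klrd1 (-0.91 ± 0.31) included, were not above the nonspecific probes in any group. Red cell markers, a sign of retained blood, had 3 of 6 below 0, and 5 of the 6 were not above those probes. Interferon-stimulated genes were split evenly, 10 of 20 below 0 with a median of 0.02, and Ifit2 gave 0.61 ± 0.27.

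Heat shock genes are shown with sequence, because 3 of their 19 measured members were among the 16 that H/R raised without simvastatin (0.119% of all genes). The 250 bases before the start of these 3 genes follow, from RefSeq on build GRCr8, with capitals marking the 8-letter inverted repeats GAANNTTC or TTCNNGAA, each its own reverse complement, and adjoining repeats merged. Hspb1 is at chr12:26432302-26432551 on the minus strand, Hsph1 at chr12:10427118-10427367 on the plus strand and Hspe1 at chr9:64084077-64084326 on the plus strand.
Hspb1: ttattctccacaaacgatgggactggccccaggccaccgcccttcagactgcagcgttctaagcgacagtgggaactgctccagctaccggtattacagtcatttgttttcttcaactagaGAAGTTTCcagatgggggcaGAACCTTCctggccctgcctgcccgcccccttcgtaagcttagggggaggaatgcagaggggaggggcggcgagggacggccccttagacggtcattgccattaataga
Hsph1: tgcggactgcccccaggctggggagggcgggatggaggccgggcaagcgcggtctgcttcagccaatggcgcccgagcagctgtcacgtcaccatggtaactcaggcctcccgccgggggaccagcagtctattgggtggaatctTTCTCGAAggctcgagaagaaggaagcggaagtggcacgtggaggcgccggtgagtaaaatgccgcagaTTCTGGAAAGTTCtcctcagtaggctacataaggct
Hspe1: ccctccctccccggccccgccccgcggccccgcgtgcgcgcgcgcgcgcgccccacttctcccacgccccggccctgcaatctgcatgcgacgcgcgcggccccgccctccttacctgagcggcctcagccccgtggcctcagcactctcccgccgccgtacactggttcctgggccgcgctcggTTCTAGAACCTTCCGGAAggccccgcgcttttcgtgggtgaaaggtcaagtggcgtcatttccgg
The repeat occurred 2 times before Hspb1, 3 times before Hsph1 and 3 times before Hspe1. It was present in 11 of the 17 heat shock genes that had a promoter in the RefSeq table, and in 13.5% of all 33469 promoters searched. A match describes the letters only.

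Without simvastatin H/R raised Hspb1, a small chaperone that protects the actin skeleton. It measured 7.34, 7.47, 6.57, 7.75 and 7.68 in ligated sham rats and 8.84 (median 9.89) to 10.91 after H/R, with no overlap (2.50 ± 0.44, adjusted p = 0.0086). With simvastatin it measured 8.03, 6.97, 7.74, 7.96 and 7.36 in sham rats and 7.29 (median 8.89) to 10.03 after H/R.

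The drug groups overlapped in part and the estimate was 1.14 ± 0.41 (adjusted p = 0.85), leaving a difference of -1.37 ± 0.60 (adjusted p = 0.96). Hsph1, a co-chaperone of HSP70, rose by 1.53 ± 0.27 without the drug (adjusted p = 0.0086), against an estimate of 0.41 ± 0.25 with it, a difference of -1.12 ± 0.37. After H/R it was lower with simvastatin by -0.97 (adjusted p = 0.032). Hspe1, the mitochondrial chaperonin cap, rose by 0.60 ± 0.11 without the drug (adjusted p = 0.013). Its H/R effect with the drug was 0.04 ± 0.11, and the difference was -0.56 ± 0.16 (adjusted p = 0.53). Its simvastatin sham arrays, 11.60, 11.81, 11.69, 11.49 and 11.65, lay above the ligated sham arrays except that 11.49 was below 11.53, and those measured 11.20, 11.29, 11.35, 11.37 and 11.53.

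Over the whole list 18 of 19 heat shock genes lay below 0, with a median of -0.29. Of these, 6 did so at an unadjusted p under 0.05 (2.91% of all genes did), but 2 without the array that stood apart. The median H/R effect was 0.41 without simvastatin and 0.06 with it. Stip1, which links HSP70 to HSP90, gave -0.51 ± 0.21. The median of the list ran from -0.40 to -0.27 when single arrays were left out.

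**Figure D4:**
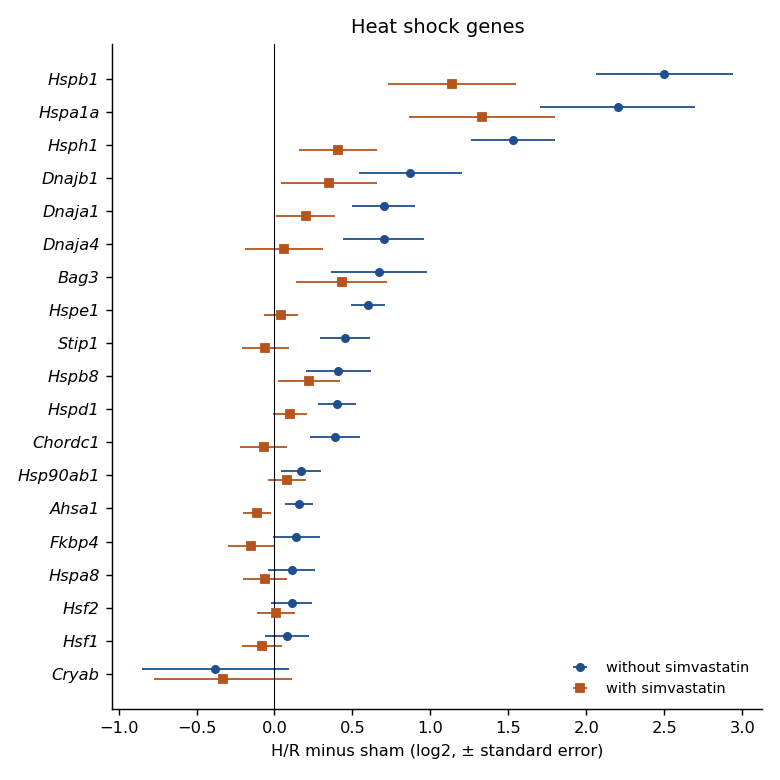
For each of 19 heat shock genes the horizontal axis gives the H/R minus sham difference in log2 with its standard error, without (blue circles) and with simvastatin (orange squares). The blue point lies to the right of the orange one for 18 of 19 genes, with Hspb1 at 2.50 and 1.14 and Hspe1 at 0.60 and 0.04.

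Other stress lists were nearer the background. Genes of the endoplasmic reticulum and integrated stress response had 21 of 30 below 0 with a median of -0.14, and -0.07 without the array that stood apart. Their median H/R effect was 0.20 without and 0.15 with simvastatin. Dnajb9, a chaperone of that compartment, rose by 0.90 without the drug (adjusted p = 0.023) and its difference was -0.44 ± 0.25. Immediate early genes, which answer any stimulus within minutes, had median H/R effects of 0.34 and 0.28 and a difference of -0.14. Hypoxia-inducible genes had medians of 0.33 and 0.15, with 19 of 27 below 0, while Edn1, the vasoconstrictor endothelin 1, lay above 0 at 1.68 ± 0.63. NRF2 targets were split 15 of 26 below 0, with Hmox1, heme oxygenase 1, at -0.73 ± 0.43 and Gstm1, a glutathione transferase, at 0.58 ± 0.24. Among p53 and apoptosis genes, with 8 of 20 below 0, Bcl2a1, a survival factor of leukocytes, rose by 1.36 without simvastatin (adjusted p = 0.013) and gave a difference of -1.05 ± 0.36, and Mdm2 gave -0.40 ± 0.18. 

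Hepatocyte genes lay on the other side of 0, by small amounts. Hepatocyte function genes had 1 of 20 below 0, with a median of 0.25, and their median H/R effect was -0.11 without and 0.07 with the drug. G6pc1, the enzyme that releases glucose, measured 10.77, 10.24, 10.47, 10.66 and 10.83 in ligated sham rats and 8.78 (median 10.02) to 10.43 after H/R. In simvastatin sham rats it measured 9.87, 10.40, 10.45, 8.22 and 10.16, and after H/R 9.89 (median 10.18) to 10.92.

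The difference for G6pc1 was 1.18 ± 0.46 (adjusted p = 0.86), and the simvastatin sham array at 8.22 was far below the next at 9.87. Without that array, replicate 4, the difference was 0.78. Tat, an amino acid enzyme induced by glucocorticoids, gave 0.94 ± 0.42, and 0.57 without the array that stood apart. Fbp1, a step of gluconeogenesis, gave 0.65 ± 0.26, and 0.43 without that array. Gluconeogenesis and glucocorticoid response genes had 6 of 21 below 0 and a median of 0.19, lipogenesis genes 2 of 19 and 0.14, fatty acid oxidation genes 6 of 20 and 0.14, and acute phase and coagulation genes 6 of 26 and 0.08. Metallothionein, Mt2A, gave -0.31 ± 0.13.

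Bile acid synthesis and transport genes, which matter in an obstructed liver, had 4 of 22 below 0 and a median of 0.18. Abcc2, the canalicular pump for conjugated bilirubin, gave 1.07 ± 0.42, Cyp27a1, of the alternative bile acid pathway, 0.49 ± 0.22, and Baat, which conjugates bile acids, 0.65 ± 0.32. Cytochrome P450 genes had 5 of 16 below 0 and a median of 0.24, with Cyp3a9 at 1.72 ± 0.61 and the male-typical Cyp2c11 on the other side at -1.46 ± 0.74. Cyp2c11 averaged 6.20 in ligated sham and 7.76 in ligated H/R. With simvastatin it averaged 3.61 in sham rats and 3.72 after H/R, close to the nonspecific probes at 3.26 and 3.32, so little room was left to fall. Its difference was -0.94 without ligated sham replicate 4, -2.25 without replicate 5 of that group and -0.86 with the title ending as a term. Cyp3a9 reached 7.43 ± 0.73 (n = 8) in simvastatin H/R against 5.57 ± 0.88 (n = 5) in simvastatin sham, and averaged 6.01 ± 0.57 (n = 5) and 6.15 ± 1.07 (n = 6) without the drug.

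Sterol synthesis and uptake genes are the direct targets of the drug's feedback. Their drug effect was present in both states, with 17 of 25 rising in sham rats (0.632% of all genes did) and 19 of 25 after H/R (0.848%), and medians of 1.22 and 1.54. The difference of hemorrhage effects was small, with 7 of 25 below 0 and a median of 0.18. Msmo1, a demethylase of the pathway, was higher with simvastatin by 1.90 in sham rats (adjusted p = 1.2e-07) and by 2.46 after H/R (adjusted p = 4.4e-12), a difference of 0.55 ± 0.27 (adjusted p = 0.99). Small GTPases and prenylation genes, downstream of the same pathway, had 8 of 21 below 0 and a median of 0.10. Rhob gave 0.55 ± 0.24, and the leukocyte forms Rac2 and Arhgdib -0.77 ± 0.34 and -0.55 ± 0.22.

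Vessel genes lay on both sides of 0. Endothelial markers had 10 of 15 below 0 with a median of -0.10, and 0.09 without the array that stood apart. Klf2 averaged 7.92 ± 0.39 (n = 5) and 7.58 ± 0.37 (n = 6) without simvastatin and 8.02 ± 0.28 (n = 5) and 8.38 ± 0.53 (n = 8) with it. The groups overlapped, and the difference of 0.69 ± 0.37 had a 95% interval from -0.05 to 1.44. Nos3, endothelial nitric oxide synthase, was not above the nonspecific probes in any group, so its 0.18 ± 0.29, which ran from 0.03 to 0.29 with single arrays left out, has little signal behind it. Lyve1 and Stab2, hyaluronan receptors of sinusoidal endothelium, gave -0.60 ± 0.23 and -1.60 ± 0.79, the latter the lowest of the list. Stab2 was -2.41 without ligated sham replicate 3 and -0.11 with the title ending as a term.

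Stellate cell and matrix genes, which build the scar, had 20 of 30 below 0 and a median of -0.31. Postn, a matrix protein of active scars, gave -2.22 ± 0.66, the stellate cell filament Des -0.82 ± 0.27, and the collagens Col5a1 and Col1a1 -0.84 ± 0.31 and -0.78 ± 0.33. Col1a1 was lower with simvastatin after H/R (-0.92, adjusted p = 0.020). Cholangiocyte markers, abundant in the ligated liver, had 8 of 19 below 0 and a median of 0.05, and -0.38 with the title ending as a term. Muc1 gave -0.97 ± 0.39, and -0.67 without the array that stood apart.

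Cell cycle genes had 25 of 28 below 0 and a median of -0.38. Their median H/R effect was -0.16 without and -0.48 with simvastatin. The value without the drug rests on ligated H/R replicate 3, whose list mean was 4.59 against 5.55 to 6.00 on the other 5 arrays. Without it the H/R effect was 0.04 and the difference -0.61. Ccne2, which drives entry into DNA synthesis, gave -0.70 ± 0.20, the mitotic kinase Aurkb -0.91 ± 0.37, and Tyms, which supplies thymidylate, -0.56 ± 0.21 with 3 of the 4 groups not above the nonspecific probes. Circadian clock genes had 10 of 17 below 0 and a median of -0.01.

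Some values depended on the title endings or on the probe set. With the ending as a further term, Klf2 was 0.13, Edn1 0.65, Il1a -1.36, Clec4f -2.13, Cd163 -0.92 and Ccne2 -0.36, all nearer 0. Others moved away from it: the medians of neutrophil markers to -1.67, myeloid receptors to -0.95, cytochrome P450 genes to 0.93 and bile acid genes to 0.73, with Baat at 1.41 and Abcc2 at 1.89. So did the medians of Kupffer cell and macrophage markers (-0.65), MHC class II (-0.75) and adhesion genes (-0.41). Lipogenesis genes moved to 0.34, fatty acid oxidation genes to 0.42 and acute phase and coagulation genes to 0.35. With the mean of all its probe sets, Dock9 was 0.44, Tnf -1.07, Me2 -0.60, Pcsk5 -0.54, Nfkbiz -0.54, Klf2 0.40 and Mdm2 -0.19. None of these changed sign. List medians that did change sign with the ending term were those of red cell markers (0.11) and interferon-stimulated genes (-0.05). Cholangiocyte markers (-0.38), p53 and apoptosis genes (-0.08) and clock genes (0.06) did so too.

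Several list medians moved by over 1.5 times when 1 array was left out. Without ligated sham replicate 3 they were -0.22 for Kupffer cell and macrophage markers, -0.25 for interleukin 1 genes, -0.18 for MHC class II, -0.15 for stellate cell and matrix genes and 0.10 for cytochrome P450 genes. Without simvastatin sham replicate 2 they were -0.24 for interleukin 1 genes, -0.17 for lymphocyte markers and 0.04, across 0, for immediate early genes. Without simvastatin sham replicate 4 they were 0.14 for hepatocyte function genes, 0.09 for bile acid genes, 0.09 for cytochrome P450 genes and 0.10 for sterol genes, and without its replicate 3 bile acid genes reached 0.45. Over all single arrays left out, the medians of myeloid receptors (-0.76 to -0.43), neutrophil markers (-1.13 to -0.86), chemokines (-1.16 to -0.82), NF-kappa-B targets (-0.56 to -0.33) and adhesion genes (-0.30 to -0.16) stayed within 1.5 times. The other lists with a median from -0.14 to 0.19 moved by more than that with at least 1 array left out, and those of cytokines, immediate early genes and red cell, endothelial, cholangiocyte, interferon, NRF2 and clock genes crossed 0.

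**Figure D5:**
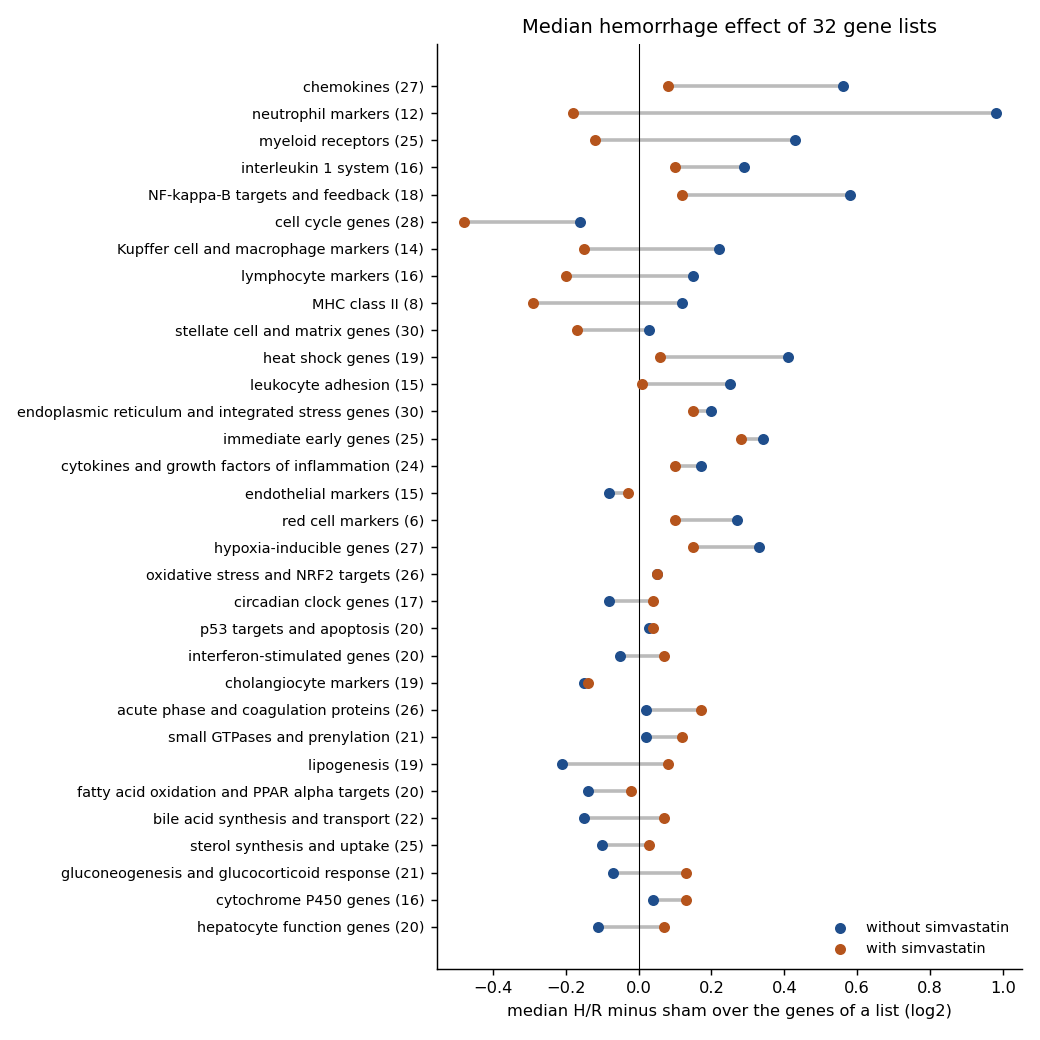
For each of 32 lists (number of measured genes in brackets) the horizontal axis gives the median H/R minus sham difference in log2 over its genes, without (blue) and with simvastatin (orange). Neutrophil markers run from 0.98 to -0.18 and chemokines from 0.56 to 0.08, while hepatocyte function genes run from -0.11 to 0.07 and immediate early genes from 0.34 to 0.28.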

How the data were processed

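Per the labels, total liver RNA was biotin-labelled and hybridised to single-colour Affymetrix arrays. The deposited table holds log2 signals made by the authors, and no source used here gives their normalization. Of 31139 probe sets 19069 (61.2%) had 1 symbol, 572 several and 11498 none, which left 13439 genes, each at its brightest probe set. The 24 ligated arrays had medians from 4.06 to 4.29, and no pair of arrays was identical. A mean per group was fitted over all 35 arrays with limma 3.58.1 in R 4.3.3 (lmFit and eBayes), with Benjamini-Hochberg adjustment over all genes, adjusted p under 0.05. A gene was called not above the nonspecific probes in a group where its mean was at or under that of the array's brightest nonspecific control probe set. That control averaged 3.64 in ligated sham, 4.00 in ligated H/R, 3.26 in simvastatin sham and 3.32 in simvastatin H/R. The fit was tested on simulated data. Replicate numbers follow accession order. Members, lists and the naming rule (the called genes and those of smallest p, up to 10 in each direction, and up to 4 per list, with a few genes fixed by name, Klf2 and Nos3 among them) were chosen with earlier results of these data known. The text describes 81 of the 139 genes that the rule names. Alternatives tried were array weights, other priors, centring, quantile normalization, filters, probe set means, title endings and leaving out each array, and after seeing the data, values floored at the nonspecific probes, every probe set tested and list medians without 1 array.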

Additional observations from a re-analysis of the deposited data

Results flagged for a closer look

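Pira2, read at its brightest probe set, was the gene whose hemorrhage effect differed between the arms by the test of the difference itself, at -2.44. Its other probe sets gave 0.97 and -0.22. It did not pass with the mean of all probe sets, or with the title ending as a term or as a random block.

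In 336 groups of 5 to 8 arrays, for 81 genes and 3 array measures, 16 held an array far from the others by Dixon's test. Chance does this in about 1 of 20 groups, so a total of 16 is near the number that chance gives. The GAPDH and beta-actin end differences of simvastatin sham replicate 1, at 2.20 (next 0.15) and 4.30 (next 1.82), were among them. In the ligated sham group the highest Tmem64 value was 8.31 (next 8.07), the highest Sod2 value 9.59 (next 9.07) and the highest Stab2 value 7.56 (next 4.12). In the ligated H/R group the lowest Dlx1 value was 2.04 (next 2.23), the lowest Tlr1 value 4.74 (next 5.62) and the lowest Il1a value 7.29 (next 7.88). In the simvastatin sham group the highest Il6 value was 7.86 (next 5.55), the highest Itgam value 5.71 (next 4.22), the highest Muc1 value 8.15 (next 6.83) and the lowest G6pc1 value 8.22 (next 9.87). In the simvastatin H/R group the highest Il1a value was 8.09 (next 6.17), the highest Cyp2c11 value 5.12 (next 3.97), the lowest RT1-Ba value 4.17 (next 8.63) and the lowest Ccne2 value 4.12 (next 4.32).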

How the results depend on the processing

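The count for the difference of hemorrhage effects was 1. It was 3 with array weights, 2 with the trend and robust prior, with arrays centred, with quantile normalization and with either filter on dim genes, and 0 with probe set means or the title ending as a random block (654 at an unadjusted p under 0.05 in limma's fit as reported). Leaving out single arrays gave 1 to 2, with 2 without simvastatin sham replicate 4 or ligated H/R replicate 5. The hemorrhage count without simvastatin, 18, became 43 with array weights and 10 with the random block, and ran from 2 to 45 when single arrays were left out. With simvastatin it was 0, and 6 with array weights. Drug effects in sham rats numbered 105, against 397 with array weights, 191 over every probe set, 49 with the random block, 8 with the ending as a term, and 66 to 168 when single arrays were left out (66 without ligated sham replicate 1, 168 without simvastatin sham replicate 1). After H/R they numbered 182, against 744, 307, 80 and 20, and 100 to 342 when single arrays were left out (ligated H/R replicates 1, 2, 3 and 4 gave 100, 121, 297 and 107, simvastatin H/R replicates 3 and 6 gave 342 and 114). With values floored the count after H/R was 4368. The floor averaged 3.32 in simvastatin H/R against 4.00 in ligated H/R. In the sham groups it averaged 3.26 with the drug against 3.64 without, and the count there with values floored was 84. Under that floor Dlx1 became -0.30, Sh3d21 -0.18 and Nos3 -0.06, all genes near the nonspecific probes. The cause of this and the other moves was not tested. Plet1, chosen after its value was seen, passed only with the ending as a term (-2.80, adjusted p = 0.027; -1.56 and 0.73 without it). No paired analysis was possible because the labels give no replicate numbers shared between groups. Array number and signal near the nonspecific probes limit what could be detected.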
